A study of Mus musculus with 45 samples.

Results

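Acetylation of histone H3 at lysine 9 (H3K9ac) was examined at 6 glutamate receptor gene loci of the mouse hippocampus, in 57 of the 44165 H3K9ac domains that were counted genome-wide. A domain is a stretch of the genome called as enriched for the mark and counted in every library. Domains were taken as members when they overlapped the mm9 window of Gria1, Gria2, Grin1, Grin2a, Grin2b or Grm2, and all 57 lay wholly inside their window. The windows were 25 to 490 kb long and held 12 domains at Gria1, 7 at Gria2, 6 at Grin1, 13 at Grin2a, 17 at Grin2b and 2 at Grm2. The rule uses positions alone, but the loci were chosen with earlier results of these data known. Members are numbered along the chromosome within each window (Gria1-d1 and so on).

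The 23 H3K9ac libraries formed 8 groups, 4 in each of 2 mouse models. Transgenic mice carrying MAPT P301S, a mutant human tau protein that aggregates in neurons, were compared with wild type mice (WT) at 6 months (2 tau and 3 WT libraries, all from females) and at 11 months (3 and 3, all from males), so age and sex changed together. Double-transgenic CK-p25 females, in which expression of p25, which activates Cdk5, was induced, were compared with control littermates named CK, with 3 libraries per group. They were sampled 2 weeks after induction, at 3.5 months of age, and 6 weeks after it, at 4.5 months, so that age cannot be told apart from time after induction. As background, p25 in CK-p25 mice is driven in forebrain excitatory neurons, while no source used here names the promoter of the tau transgene. Each model had its own antibody lot, and the models were fitted apart. Separate animals are not named for the libraries, so p-values reflect the spread among libraries, which may be technical.

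Glutamate is the main excitatory transmitter of the brain. AMPA receptors, built from Gria subunits, carry the fast synaptic current, and NMDA receptors, built from the obligatory Grin1 subunit with Grin2 subunits, admit calcium and are needed for many forms of synaptic plasticity in the hippocampus. Grm2 encodes a metabotropic receptor that is coupled to inhibitory G proteins and dampens glutamate release. H3K9ac marks active promoters and enhancers. It is laid down by acetyltransferases and removed by deacetylases.

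RefSeq promoter sequences were at hand for 3 of the 6 genes, each running from 250 bases before to 50 after the annotated start, on the minus strand of GRCm38.p6. They are shown because they are the gene starts of windows whose H3K9ac is described here, and because they share CpG-rich sequence. They lie at chr2:25319138-25319437 (Grin1), chr3:80802786-80803085 (Gria2) and chr9:106656060-106656359 (Grm2). These coordinates are on another build than the mm9 domains, so no promoter was assigned to a domain. Capitals mark the 2 RE1-like matches described below. RE1 is the element bound by the repressor REST, which holds many neuronal genes silent outside neurons.
Grin1: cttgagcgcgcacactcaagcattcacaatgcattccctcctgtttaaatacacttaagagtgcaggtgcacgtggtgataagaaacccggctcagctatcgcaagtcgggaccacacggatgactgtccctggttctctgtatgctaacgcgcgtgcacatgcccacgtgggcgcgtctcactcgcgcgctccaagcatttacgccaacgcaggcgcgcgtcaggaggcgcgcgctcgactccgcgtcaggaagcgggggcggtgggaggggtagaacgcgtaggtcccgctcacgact
Gria2: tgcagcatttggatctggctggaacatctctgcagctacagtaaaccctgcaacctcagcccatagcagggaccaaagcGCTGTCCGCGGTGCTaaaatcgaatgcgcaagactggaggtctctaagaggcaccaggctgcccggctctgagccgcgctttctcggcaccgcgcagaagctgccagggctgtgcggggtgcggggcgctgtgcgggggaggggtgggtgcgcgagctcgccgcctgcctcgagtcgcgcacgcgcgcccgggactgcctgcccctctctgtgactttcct
Grm2: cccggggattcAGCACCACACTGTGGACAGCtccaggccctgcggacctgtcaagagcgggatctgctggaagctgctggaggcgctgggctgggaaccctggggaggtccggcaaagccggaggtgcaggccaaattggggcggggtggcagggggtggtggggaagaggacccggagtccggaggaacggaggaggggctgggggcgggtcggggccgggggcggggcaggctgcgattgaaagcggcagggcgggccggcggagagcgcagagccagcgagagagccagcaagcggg

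The Grin1 promoter held 33 CpG dinucleotides, more than 91.4% of the 32851 promoters in the table, whose median was 7. Gria2 held 26, more than 83.1% of promoters, and Grm2 held 22, more than 76.9%. The RE1-like letters AGCACC followed after a gap of 2 bases by GGACAGC, searched on both strands, matched Gria2 once on the opposite strand, as GCTGTCCGCGGTGCT at bases -171 to -157 from the start. This form of the element was found in 10 of 32851 promoters (0.0304%). With a longer gap of 7 bases between the same letters, the motif matched Grm2 once, as AGCACCACACTGTGGACAGC at bases -239 to -220, and 3 promoters in all held it (0.00913%). The GC box GGGCGG occurred 4 times in Grm2, 1 time in Grin1 and 0 times in Gria2, and in 35.7% of all promoters. The full cyclic-AMP response element TGACGTCA, present in 1.79% of promoters, had no match in these 3 windows. The letters were chosen after the sequences had been read, and a match is a description of sequence alone.

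Each window was dominated by few wide domains. The leading domain, defined as the member with the highest mean count over all 23 libraries, was Gria1-d1 (chr11:56824326-56828230), Gria2-d6 (chr3:80601068-80607488), Grin1-d6 (chr2:25172102-25175051), Grin2a-d13 (chr16:9989716-9996371), Grin2b-d17 (chr6:136118674-136124006) and Grm2-d2 (chr9:106554205-106560104). These 6 domains were 2950 to 6656 bp wide and averaged 272 to 703 reads per library. The 51 other members were 117 to 4391 bp wide and averaged 6.61 to 163 reads. In WT mice at 11 months the leading domain held 97.6% of the window's reads at Grm2, 89.2% at Gria2 and 77.1% at Grin2a, and 56.1% at Grin1, 52.6% at Gria1 and 52.0% at Grin2b. All 57 members passed the filter on low counts in the tau series and 44 in the CK-p25 series, and the 13 that did not were 117 to 280 bp wide.

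Levels are given in CPM, the read count scaled to the library's reads in domains, after TMM normalisation. Per kb of domain, the leading domain of Grin2a stood highest in WT mice at 11 months, at 27.3 ± 1.88 CPM per kb (SD, n = 3). It was followed by Grin2b at 27.1 ± 1.27, Gria2 at 26.8 ± 1.94 and Grin1 at 25.9 ± 0.381 CPM per kb. Each of these differed from the gene above it by less than the larger of the 2 spreads. Gria1 came next at 24.2 ± 0.816 CPM per kb, and Grm2 was lowest at 18.65 ± 1.86 CPM per kb, each with a gap to the gene above it that was larger than either spread. The 57 members together took 0.108% to 0.119% of the reads in domains in each WT and each 6-month tau library, against 0.0632% to 0.0803% in the 3 tau libraries at 11 months.

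In tau mice at 11 months H3K9ac was lower at all 6 loci. With the member domains of a window summed into 1 value, the difference from WT was largest at Grm2, where it fell by 1.12 on the log2 scale (SE 0.08), and smallest at Grin1, where it fell by 0.35 (SE 0.06). Gria1 fell by 0.79 (SE 0.06), Gria2 by 0.61 (SE 0.10), Grin2a by 0.90 (SE 0.08) and Grin2b by 0.68 (SE 0.06). The adjusted p of these sums in edgeR's quasi-likelihood test ranged from 4.22e-17 at Grm2 to 0.000624 at Gria2, with Benjamini-Hochberg adjustment over the whole table, and 7.53% of that table was lower. Every tau library lay below every WT library in each of the 6 sums. These are bulk samples, in which fewer cells of a type and less of the mark per cell cannot be told apart.

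**Figure D1:**
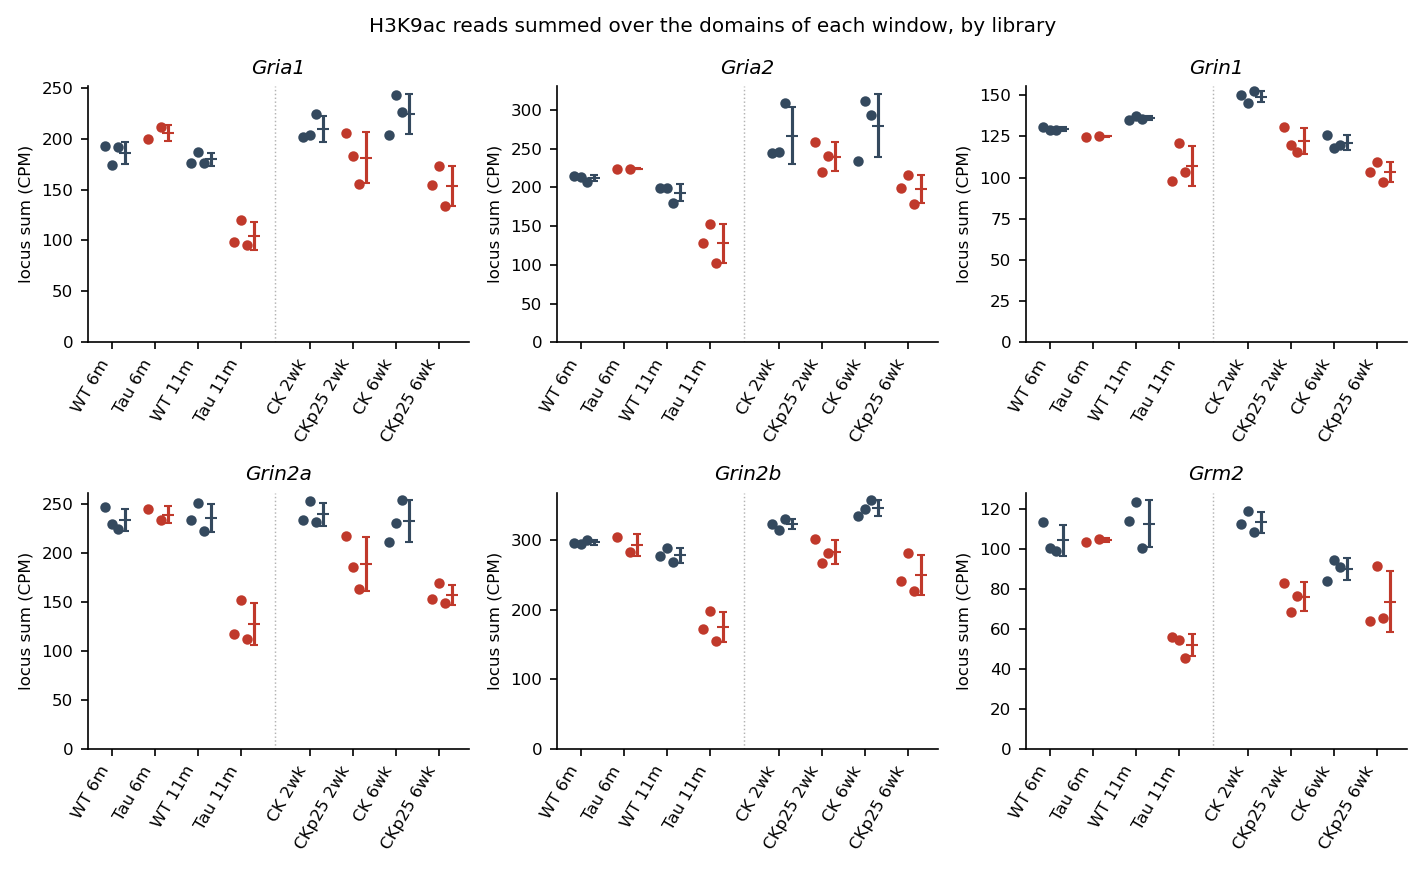
Summed H3K9ac level of each window in CPM (vertical axes, from 0) in the 8 groups, with 1 point per library, disease model libraries in red and controls in dark blue; bars are the mean ± SD. The 3 tau libraries at 11 months sit below all WT libraries in every window, for example at 45.6 to 56.0 CPM against 100.5 to 124 CPM at Grm2.

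Of the 57 members, 20 were lower in tau mice at 11 months at an adjusted p under 0.05 and 0 were higher. Over all domains tested, 7.56% were lower and 4.4% higher. The members that fell were 6 of 12 at Gria1, 1 of 7 at Gria2, 1 of 6 at Grin1, 6 of 13 at Grin2a, 5 of 17 at Grin2b and 1 of 2 at Grm2, and each window's leading domain was among them. The other 14, which were 276 to 4391 bp wide, had log2 changes of -1.71 to -0.52. The 37 members that were not called ranged from -1.17 to 0.40, and 33 of them had a negative sign. The fold change was negative in 53 of 57 members, with a median of -0.63 on the log2 scale, against 0.01 over all domains. In 33 members every tau library was below every WT library, which was so for 13.8% of all domains. Wide domains were called more often in general: of the 25% of domains that were widest (at least 1684 bp), 18.5% were lower, and 11 of the 12 members of that width were lower.

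The surrounding domains were counted in the same way. Of the 189 domains within 500 kb of a window but outside it, 14 were lower and 5 higher in tau mice at 11 months, and their median log2 change was -0.01. At Gria1, where 6 of 12 members fell, 0 of 11 such neighbours were lower and 1 was higher. At Grin1 5 of 66 neighbours were lower and 2 higher, at Grm2 5 of 72 were lower and 2 higher, at Grin2b 3 of 27 were lower, at Grin2a 1 of 7 and at Gria2 0 of 6, with 0 higher at these 3 loci. The difference between members and neighbours was not tested.

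**Figure D2:**
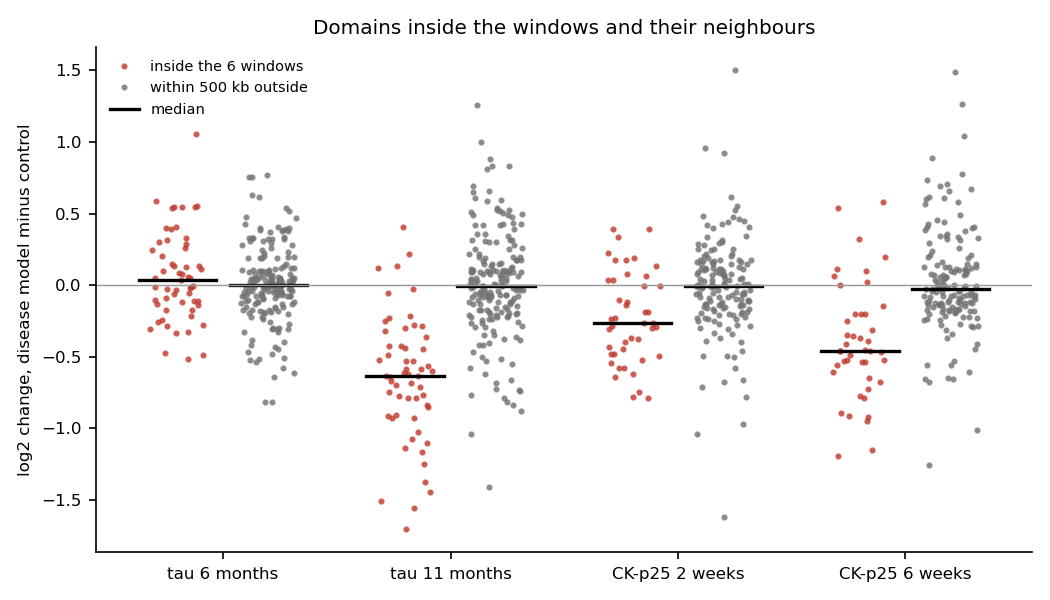
Log2 change of each tested domain inside the 6 windows and within 500 kb outside them, disease model minus control, by comparison. In tau mice at 11 months the members centre on -0.63 and the 189 outside domains on -0.01.

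At 6 months no member and no locus sum differed between tau and WT mice at an adjusted p under 0.05, nor did any other domain (0% of all domains) with edgeR's quasi-likelihood test. DESeq2 also called 0 members. An unadjusted p under 0.05 (edgeR) was found in 2 of 57 members and 1 of 6 sums, against 1426 of all 44105 domains tested. The log2 changes of the sums were 0.14 at Gria1 (95% interval 0.01 to 0.27), 0.08 at Gria2 (-0.14 to 0.30), -0.05 at Grin1 (-0.19 to 0.09), 0.04 at Grin2a (-0.13 to 0.20), -0.02 at Grin2b (-0.14 to 0.11) and 0.00 at Grm2 (-0.16 to 0.16). The interval at Gria1 lay just above 0. At the other loci, intervals of this width do not exclude small changes in either direction.

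The tau effect itself differed between the ages. Taken as the change at 11 months minus that at 6 months, it was lower for 13 members and higher for 0, against 3.21% lower and 1.02% higher over all domains, and lower for all 6 sums (3.2% of the rows of that table). The difference was -1.12 ± 0.11 (log2, SE) at Grm2, -0.93 ± 0.09 at Gria1, -0.93 ± 0.11 at Grin2a, -0.69 ± 0.14 at Gria2, -0.66 ± 0.08 at Grin2b and -0.30 ± 0.09 at Grin1. The adjusted p (edgeR) ran from 3.67e-11 at Gria1 to 0.0442 at Grin1. The call at Grin1 was lost under 17 of 19 alternative settings and that at Gria2 under 4 of 19. Age, sex and any batch between the 2 ages cannot be told apart in this difference.

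In CK-p25 mice H3K9ac fell at some of the loci and rose at none. At 2 weeks after induction 3 of the 44 members tested fell and 0 rose, against 0.613% lower and 1.51% higher over all domains. They were the leading domains of Grm2, Grin1 and Grin2a. At 6 weeks 6 of 44 fell and 0 rose, against 1.33% lower and 1.32% higher over all domains. These were the leading domains of Gria1, Gria2, Grin1, Grin2a and Grin2b, and Gria1-d2. All the members that fell were 2950 bp or wider, and among the widest 25% of all domains 1.92% were lower at 2 weeks and 3.92% at 6 weeks. The median log2 change of the members was -0.26 at 2 weeks and -0.46 at 6 weeks, against 0.00 over all domains at both times. Of the members outside the leading domains that were tested and not called, 26 of 38 had a negative fold change at 2 weeks and 28 of 37 at 6 weeks. No overlap between the groups, with CK-p25 below CK, was seen in 12 of 57 members at 2 weeks and 17 at 6 weeks, against 7.46% and 8.46% of the tested domains. The reverse order was seen in 1 member at 6 weeks, against 8.81%. Unlike these shares, the member counts include the 13 members that were not tested in this series. Within 500 kb outside the windows 0 of 156 domains were lower and 1 was higher at each time.

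The members called in CK-p25 mice were all called lower in tau mice at 11 months too. The 3 members of the 2-week comparison were 15% of the 20 called in tau mice, and the 6 of the 6-week comparison were 30%. These comparisons share no library. All the members called in CK-p25 mice were among the widest 25% of domains. Of the 12 members of that width, 11 were lower in tau mice at 11 months. How often calls were shared over all domains was not counted here. As sums, Grin1, Grin2a and Grm2 fell at 2 weeks, and Gria1, Gria2, Grin2a and Grin2b fell at 6 weeks, out of 38155 rows of which 0.613% and 1.32% were lower. At 2 weeks 1 sum was called without CK replicate 2 and 1 without CK-p25 replicate 3, and the Grin1 sum was lost under 7 of 22 alternative settings (-0.08 with windows widened by 50 kb). The Gria1 sum passed at 2 weeks without CK-p25 replicate 1 (log2 change -0.29, edgeR adjusted p = 0.0493), and the Gria2 sum at 6 weeks was lost without the 2 shallow libraries.

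**Figure D3:**
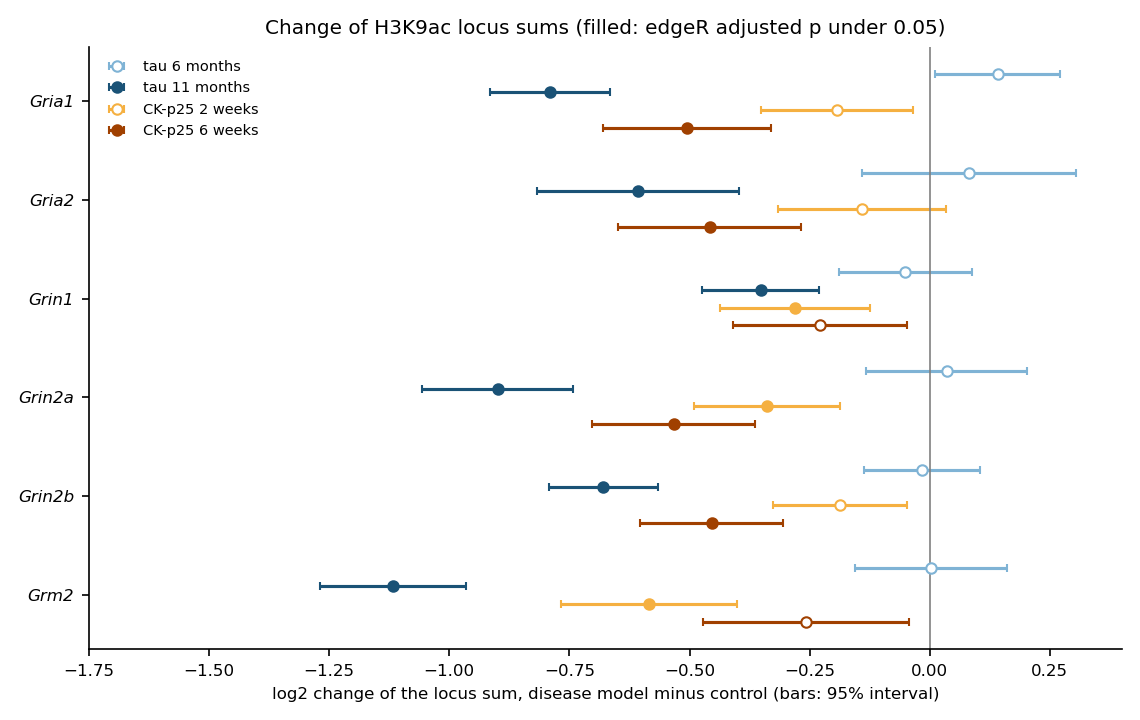
Log2 change of each window's summed H3K9ac with its 95% interval (horizontal axis, disease model minus control) in the 4 comparisons; filled points passed an edgeR adjusted p under 0.05. All 6 sums are filled at 11 months in tau mice and none at 6 months, while in CK-p25 mice 3 are filled at 2 weeks and 4 at 6 weeks.

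Among the AMPA receptor subunits, Gria1 encodes GluA1, a subunit whose delivery to synapses is tied to long-term potentiation. Its leading domain Gria1-d1 read 50.2, 63.3 and 45.4 CPM in the 3 tau libraries at 11 months, and 90.8, 95.7 and 96.7 CPM in the WT libraries. The groups did not overlap, and Gria1-d1 fell by 0.85 (log2 scale, SE 0.08, edgeR adjusted p = 1.72e-12). At 6 months it read 114 and 111 CPM in tau and 100.01, 95.2 and 113 CPM in WT libraries, and these values overlapped. In CK-p25 mice Gria1-d1 read 109.6, 94.9 and 86.3 CPM against 102, 109 and 126 CPM in CK mice at 2 weeks, with overlap and no call (log2 change -0.19, edgeR adjusted p = 0.428). At 6 weeks it read 78.7, 92.8 and 78.8 CPM against 100.5, 133 and 124 CPM. There the groups stood apart, and the domain fell by 0.46 (SE 0.10, edgeR adjusted p = 0.00251), a call that was lost without CK replicate 2 (-0.36), without CK-p25 replicate 1 (-0.40) and without the 2 shallow 6-week libraries (-0.41).

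The next domain along, Gria1-d2 (chr11:56828380-56832009), was lower at 11 months as well. It read 19.5, 19.4 and 19.3 CPM in tau libraries against 38.9, 36.0 and 29.6 CPM in WT libraries. The tau values were close to each other and all below WT, and Gria1-d2 fell by 0.84 (SE 0.12, edgeR adjusted p = 9.50e-08). With cross correlation as a covariate the change was -0.66 and not called (edgeR adjusted p = 0.216). At 6 weeks in CK-p25 mice it read 26.6, 34.2 and 24.7 CPM against 48.9, 48.0 and 33.8 CPM. The highest CK-p25 library was just above the lowest CK library, and the fitted change was -0.65 (SE 0.15, edgeR adjusted p = 0.00418). Without CK replicate 1 the adjusted p was 0.162, and without CK-p25 replicate 1 it was 0.102. Over the window, the 12 members of Gria1 all had negative fold changes at 11 months, from -1.71 to -0.25, at positions from 16.3 to 323.5 kb after the window's start.

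Gria2 encodes GluA2, the subunit that makes AMPA receptors nearly impermeable to calcium after RNA editing. Its leading domain Gria2-d6 held most of the window's reads, 87.5% in tau libraries and 89.2% in WT libraries at 11 months. It read 112, 136 and 88.1 CPM in tau and 179, 180.5 and 158 CPM in WT libraries at that age. All tau libraries were below all WT libraries, and the domain fell by 0.63 (SE 0.12, edgeR adjusted p = 0.00396), a call lost with cross correlation as a covariate (-0.63, edgeR adjusted p = 0.426). At 6 weeks it read 173, 184 and 160.0 CPM in CK-p25 and 200.3, 271 and 260.4 CPM in CK libraries. These groups did not overlap, and it fell by 0.46 (SE 0.10, edgeR adjusted p = 0.00252), but without the 2 shallow 6-week libraries the call was lost (-0.37, edgeR adjusted p = 0.155). At 2 weeks the values overlapped and the log2 change was -0.14 (95% interval -0.31 to 0.04). None of the 6 other members of the window was called in any comparison.

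**Figure D4:**
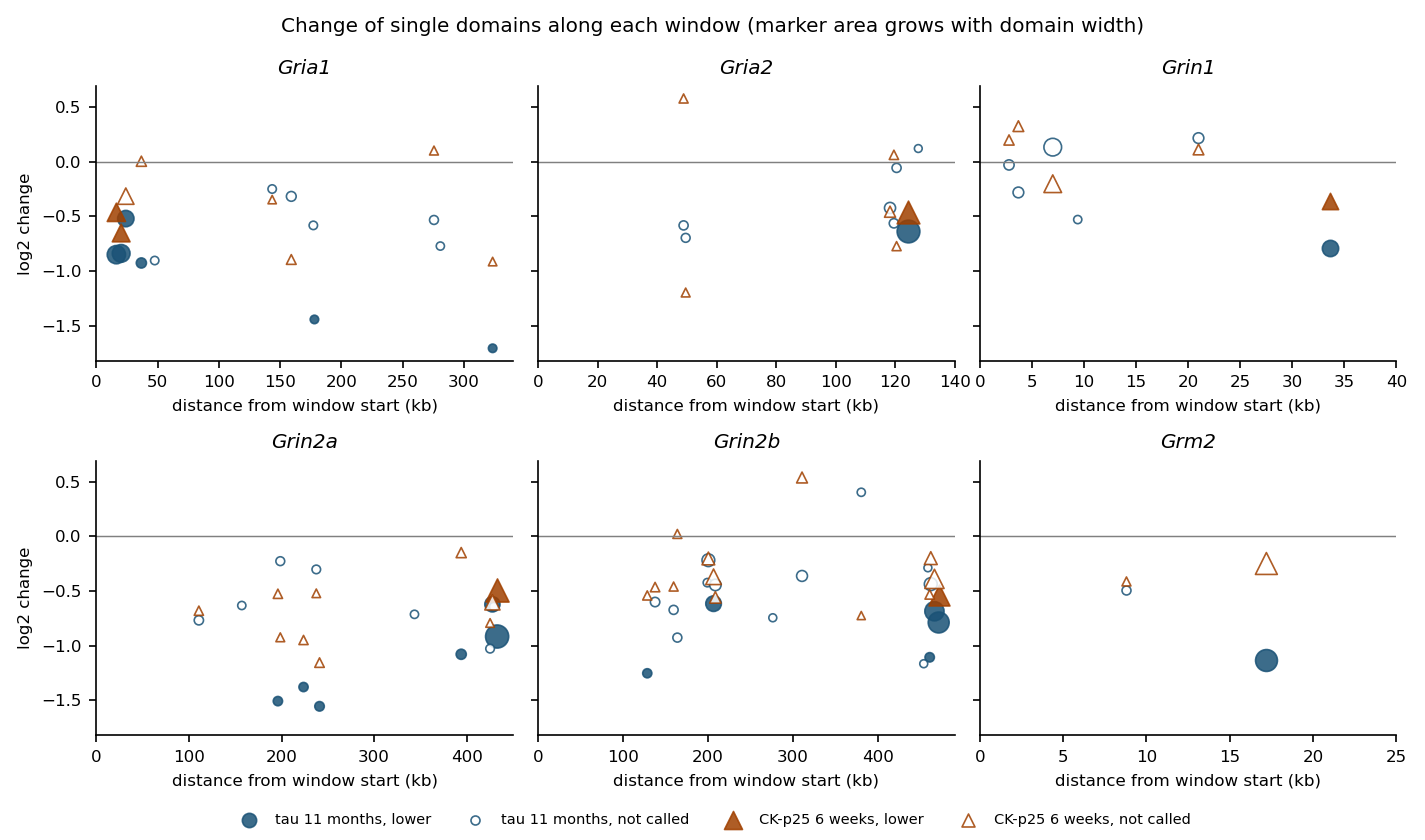
Log2 change of the member domains (vertical axis, tau minus WT at 11 months) against their distance from the window's start in kb (horizontal axis), 1 panel per gene. In tau mice the 12 Gria1 and 13 Grin2a members are all below 0, and 4 of the 57 members, at Gria2, Grin1 and Grin2b, are above it. In CK-p25 mice at 6 weeks 9 of the 44 tested members are above 0.

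The NMDA receptor loci fell as well. Grin1 encodes GluN1, the subunit found in every NMDA receptor. Grin1-d6 read 41.6, 55.0 and 38.3 CPM in tau libraries at 11 months and 77.1, 77.0 and 75.1 CPM in WT libraries. There was no overlap, and Grin1-d6 fell by 0.79 (SE 0.08, edgeR adjusted p = 2.28e-11). At 2 weeks it read 80.5, 67.8 and 71.6 CPM in CK-p25 and 98.1, 92.9 and 96.4 CPM in CK libraries. Again all disease libraries were lower, and it fell by 0.38 (SE 0.09, edgeR adjusted p = 0.00560), but not at the threshold without CK-p25 replicate 2 (adjusted p = 0.142) or with DESeq2 (0.0747). At 6 weeks it read 59.2, 67.3 and 56.4 CPM against 80.0, 77.0 and 78.9 CPM. The groups stood apart there as well, but with an edgeR adjusted p of 0.0498 the call (log2 change -0.36, SE 0.11) was lost under 17 of 23 alternative settings.

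The other wide domain of the Grin1 window was called in no comparison. Grin1-d3 (chr2:25145179-25148768, 3590 bp), which was singled out after its values were seen, read 36.0, 41.7 and 41.6 CPM in tau and 33.9, 37.9 and 36.7 CPM in WT libraries at 11 months. These values overlapped, with a log2 change of 0.13 (95% interval -0.06 to 0.32, edgeR adjusted p = 0.428). In CK-p25 mice its change was 0.00 (-0.30 to 0.29) at 2 weeks and -0.20 (-0.55 to 0.15) at 6 weeks. At 6 months Grin1-d3 read 29.2 and 30.6 CPM in tau and 32.2, 32.2 and 32.7 CPM in WT libraries (log2 change -0.11). All tau libraries were below all WT libraries there, an order seen in 10.1% of all domains. The share of the window's reads that fell in Grin1-d6 was 41.7% ± 4.27 in tau and 56.1% ± 0.857 in WT libraries at 11 months (mean ± SD of 3 libraries each). It was 60.015% ± 2.93 in CK-p25 and 64.2% ± 1.06 in CK libraries at 2 weeks, and 58.9% ± 2.24 and 64.9% ± 1.25 at 6 weeks (n = 3 in each group). In all 3 cases the groups did not overlap, and the two-sided exact permutation p was 0.1, the smallest that 3 against 3 libraries allow (0.48 adjusted over 24 such comparisons, of 6 loci at 4 times). At 6 months the shares of Grin1-d6, 56.5% and 56.9%, overlapped. The leading domain's share at 11 months was also lower without overlap in tau libraries at Grin2b (48.3% against 52.0%). The same held at Grm2 (96.4% against 97.6%), both with an exact permutation p of 0.1. On GRCm38 the Grin1 gene has close neighbours, with Anapc2, Tmem210 and Lrrc26 before it and Grin1os, AA543186 and Man1b1 after it, so a domain of this window may belong to another gene. With the windows widened by 50 kb the Grin1 sum changed by -0.04 at 11 months (edgeR adjusted p = 0.606).

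**Figure D5:**
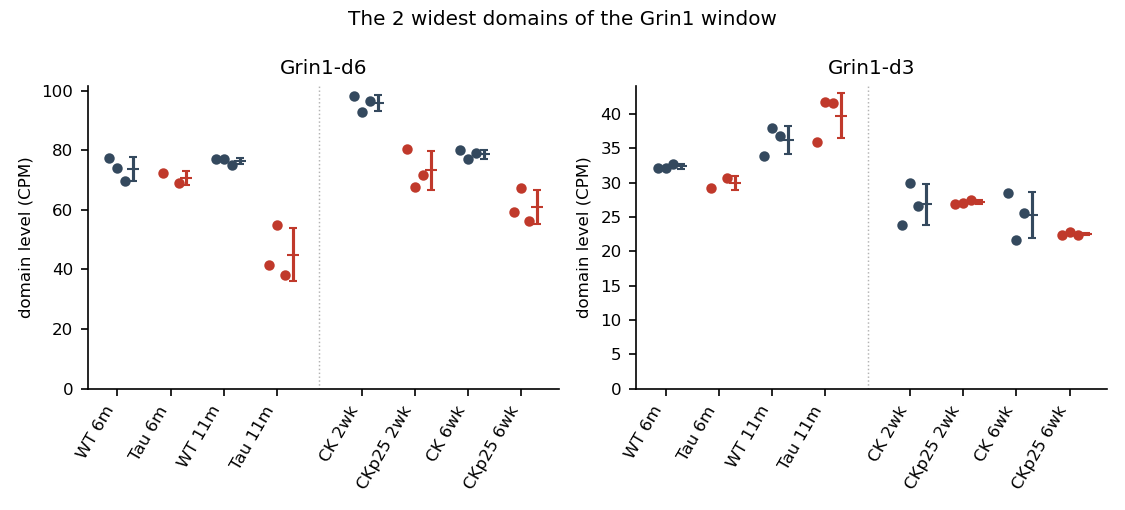
Level in CPM (vertical axes, from 0) of the 2 widest domains of the Grin1 window in the 8 groups, with 1 point per library, disease models in red, controls in dark blue, and bars for the mean ± SD. Grin1-d6 is lower in tau libraries at 11 months (38.3 to 55.0 CPM against 75.1 to 77.1 CPM), while Grin1-d3 overlaps between tau and WT libraries at that age. At 6 months Grin1-d3 does not overlap (29.2 and 30.6 CPM in tau against 32.2 to 32.7 CPM in WT libraries) and was not called.

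Grin2a encodes GluN2A, the NMDA receptor subunit that becomes prominent in the mature forebrain. Like Grin1, its window had a called domain in each of the 3 comparisons that had any. Grin2a-d13 read 92.5, 117 and 81.9 CPM in tau libraries at 11 months and 183, 194 and 169 CPM in WT libraries. The groups were far apart, and it fell by 0.92 (SE 0.09, edgeR adjusted p = 7.69e-08). At 2 weeks it read 159.5, 136 and 116 CPM in CK-p25 and 177, 189.7 and 165 CPM in CK libraries. The highest CK-p25 library was just below the lowest CK library, and the domain fell by 0.37 (SE 0.08, edgeR adjusted p = 0.00215). Without CK replicate 2 the adjusted p was 0.0877, without CK-p25 replicate 3 it was 0.0920, and with DESeq2 0.0529. At 6 weeks it read 111, 123 and 109.7 CPM against 149, 174 and 169 CPM. The groups did not overlap, and it fell by 0.49 (SE 0.09, edgeR adjusted p = 0.000210). All 13 members of Grin2a had negative fold changes at 11 months, and in 11 of them the tau libraries were all below the WT libraries.

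Grin2b encodes GluN2B, the subunit that is prominent early in life and persists in the adult hippocampus. Grin2b-d17 read 84.1, 93.3 and 74.9 CPM in tau and 139.5, 152 and 142 CPM in WT libraries at 11 months. Every tau value was below every WT value, and it fell by 0.79 (SE 0.06, edgeR adjusted p = 1.64e-15). At 2 weeks it read 149, 124 and 135 CPM in CK-p25 and 166, 165 and 158 CPM in CK libraries. Those groups did not overlap either, yet the change of -0.26 (95% interval -0.43 to -0.10) missed the threshold (edgeR adjusted p = 0.0705). It passed with the compared groups alone (edgeR adjusted p = 0.0383) and without CK-p25 replicate 1 of 2 weeks (-0.34, 0.0238) or replicate 2 of 6 weeks (0.0423). At 6 weeks it read 105, 139 and 114 CPM against 159, 176 and 195 CPM. With the groups apart, it fell by 0.53 (SE 0.09, edgeR adjusted p = 2.64e-05). Grin2b-d16 (chr6:136114075-136118465), the neighbour of the leading domain, fell by 0.69 in tau mice at 11 months (SE 0.10, edgeR adjusted p = 2.92e-07), from 45.0, 44.3 and 41.5 CPM in WT to 26.3, 32.0 and 23.9 CPM in tau libraries. With cross correlation as a covariate its change was -0.62 and not called (edgeR adjusted p = 0.160).

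Grm2, the metabotropic locus, showed the largest change of the 6 sums in tau mice at 11 months and in CK-p25 mice at 2 weeks. Its leading domain Grm2-d2 read 53.5, 52.6 and 44.2 CPM in tau libraries at 11 months and 111, 120.4 and 98.5 CPM in WT libraries. There was no overlap, and it fell by 54.5% (log2 change -1.14, SE 0.08, edgeR adjusted p = 3.93e-18). At 6 months the 2 tau libraries read 99.9 and 101 CPM and the WT libraries 109, 98.2 and 96.2 CPM. These overlapped (log2 change -0.01, 95% interval -0.17 to 0.14). At 2 weeks it read 79.5, 66.7 and 76.0 CPM in CK-p25 and 109.8, 115 and 105 CPM in CK libraries. There was no overlap, and it fell by 0.58 (SE 0.09, edgeR adjusted p = 3.22e-06).

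At 6 weeks Grm2-d2 read 61.9, 87.7 and 62.6 CPM in CK-p25 and 82.2, 87.5 and 87.1 CPM in CK libraries. CK-p25 replicate 2 was as high as the controls, and the change of -0.25 (95% interval -0.46 to -0.03) was not called (edgeR adjusted p = 0.289). Without that library Grm2-d2 changed by -0.44 (edgeR adjusted p = 0.0180) and the Grm2 sum by -0.47 (edgeR adjusted p = 0.00966), both past the threshold. The difference between the times was tested and passed for no sum and no member: the CK-p25 effect at 6 minus 2 weeks was 0.33 at Grm2 (95% interval 0.04 to 0.61), 0.05 at Grin1 (-0.19 to 0.29), -0.31 at Gria1 (-0.55 to -0.08), -0.32 at Gria2 (-0.58 to -0.06), -0.19 at Grin2a (-0.42 to 0.03) and -0.27 at Grin2b (-0.47 to -0.06). The lowest adjusted p of the sums was 0.972 (edgeR), DESeq2 also called 0 members, and 0.00524% of all domains were lower in this contrast. An unadjusted p under 0.05 (edgeR) was found in 6 of 44 members, against 1817 of all 38193 domains tested.

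Library quality moved with the groups. The tau-series libraries held 4.10 to 6.18 M reads in domains, and those of the CK-p25 series 0.996 to 4.13 M. The cross correlation stated in the labels, which reflects how well the ChIP was enriched, was 0.206 to 0.257 in tau and 0.296 to 0.342 in WT libraries at 11 months, without overlap, and 0.231 to 0.254 and 0.242 to 0.248 at 6 months, with overlap. Its mean at 2 weeks was 0.167 in CK-p25 and 0.138 in CK libraries, and its mean at 6 weeks was 0.131 and 0.0928. With cross correlation as a covariate, 7 members and 5 of the 6 sums were called in tau mice at 11 months. Of the leading domains, Gria2-d6 was the one not called. The Gria2 sum kept its size (-0.59) but not its call (edgeR adjusted p = 0.341), and the other sums changed by -0.56 (Grin1) to -1.07 (Grin2a). In the CK-p25 series 3 members were called at 2 weeks and 6 at 6 weeks with the covariate, and Grin1-d6 at 6 weeks was no longer among them (edgeR adjusted p = 0.0796). Its part in the result at 11 months was otherwise not tested. Without both shallow 6-week libraries (CK and CK-p25 replicate 3), 3 members were called at 6 weeks, and the Gria2 sum changed by -0.37 (edgeR adjusted p = 0.157).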

How the data were processed

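H3K9ac was profiled by chromatin immunoprecipitation and single-end sequencing of mouse hippocampus, and 23 H3K9ac libraries of the 45 in the series were analysed. The 22 input libraries have no column in the table of counts. The authors deposited raw counts of reads for 1 common set of 44165 domains, without normalization. The submitters' processing notes name mm9 as the build, and MACS2, BWA and Picard 1.1175 as tools. The settings, and whether domains were called on pooled samples, are not given in the sources used here. Libraries were grouped by their labels, and all 23 count columns matched a sample, leaving 0 without one.

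Members were found by overlap of the authors' domain coordinates (given here 1-based on mm9) with the gene windows. The members, the windows and the lists were chosen with earlier results of these data known. An mm9 annotation was not used here, so the labelled tissue was not checked against markers, and other receptor genes, scaffold genes and cell type markers were not analysed here. Promoters and neighbouring genes were taken from RefSeq on GRCm38.p6 by symbol, with 3 of 6 promoters matched.

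Counts were tested over the whole table with edgeR 4.0.16 (R 4.3.3) by its quasi-likelihood F test, with robust estimates, TMM factors and the filterByExpr filter, for the 11 tau-series and the 12 CK-p25-series libraries apart. Tests were two-sided, with Benjamini-Hochberg adjustment and a threshold of 0.05. For locus sums, the members of a window were replaced by their sum in the same table. The standard error is the size of the log2 change over the square root of F. Shares of reads were compared by exact permutation tests. The procedure was also run on simulated counts, which carried no difference in cross correlation between groups, and the outcome is not given here. Named members are the leading domain of each window and up to 5 called members with the smallest adjusted p per comparison and direction; any other name was chosen after its values were seen. Each of the 22 replicate pairs differed beyond sampling noise (chi-square over its degrees of freedom, 1.10 to 1.88), so none was treated as a duplicate. Reads carry no molecular identifiers. Alternatives were DESeq2 1.42.0 (Wald test, and its size factors), library totals as scaling, no filter, a threshold of 0.01, the compared groups alone, cross correlation as a covariate, a replicate block, other window rules and each library left out. The members' read counts limit the precision: the median SE of a member's log2 change at 11 months was 0.34, and that of the leading domains 0.08.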

Additional observations from a re-analysis of the deposited data

Results flagged for a closer look

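The tau effect at 11 months differed from that at 6 months at several members, as tested by the difference itself (edgeR, change at 11 months minus change at 6 months, log2 scale). All of these differences were negative. At the leading domains they were -0.98 at Gria1-d1, -0.72 at Gria2-d6, -0.72 at Grin1-d6, -0.95 at Grin2a-d13, -0.73 at Grin2b-d17 and -1.12 at Grm2-d2. At the other members they were -0.96 at Gria1-d2, -0.73 at Gria1-d3, -2.50 at Gria1-d9, -2.25 at Gria1-d12, -1.93 at Grin2a-d5, -1.96 at Grin2a-d7 and -0.93 at Grin2b-d16. The largest of these rest on few reads: in the tau libraries at 11 months Gria1-d9 held 4 to 7 and Gria1-d12 held 2 to 5. Their log2 changes at 11 months alone were -1.44 and -1.71. The calls of Gria1-d3 and of Gria2-d6 were each lost under 10 of 20 alternative settings, and that of Gria1-d12 under 7 of 19. The locus sums differed by -0.93 at Gria1, -0.69 at Gria2, -0.30 at Grin1, -0.93 at Grin2a, -0.66 at Grin2b and -1.12 at Grm2. The call of the Grin1 sum was lost under 17 of 19 settings and that of the Gria2 sum under 4 of 19. The libraries at 6 months were from females and those at 11 months from males, and age and sex cannot be told apart. Cross correlation also differed between tau and WT libraries at 11 months without overlap (0.228 against 0.313 on average) and overlapped at 6 months (0.243 against 0.245).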

How the results depend on the processing

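Over 2104 pairs of a member or locus change with an alternative setting, 1969 kept their side of the threshold, 127 lost the call in the same direction and 7 gained one. Among the 1969, 20 were values called under neither setting that changed sign, for example Grin1-d3 at 11 months (-0.18 to 0.20). The called value that changed sign was Grin2b-d1 in tau mice at 11 months, at 0.0589 with cross correlation as a covariate (edgeR adjusted p = 0.988). The cause was not tested. With that covariate 7 members were called at 11 months and 6 in the difference between ages, where 4 of the 6 sums were called. The DESeq2 Wald test called 14 members at 11 months, 8 in the difference between ages and 1 at 2 weeks in CK-p25 mice. Without both shallow 6-week libraries 3 members were called at 6 weeks. Leaving out each library gave 16 to 21 members and 6 sums at 11 months, 9 to 14 members and 4 to 6 sums in the difference between ages, and 0 at 6 months. For CK-p25 at 2 weeks it gave 2 to 4 members and 1 to 4 sums, with 1 sum without CK replicate 2 or without CK-p25 replicate 3. At 6 weeks it gave 3 to 7 members, with 3 without CK-p25 replicate 1, and 4 to 5 sums. Calls lost under 7 or more settings were those of Grin1-d6 at 6 weeks (17 of 23), of the Grin1 sum at 2 weeks (7 of 22), and, in the difference between ages, of the Grin1 sum (17 of 19), Gria2-d6 (10 of 20), Gria1-d3 (10 of 20) and Gria1-d12 (7 of 19). Replicate numbers were not used as pairs in the main tests, and the deviations of same-numbered libraries correlated at -0.01 to 0.05. At 11 months each tau library correlated best with the WT library of its own number, a hint from the data and not from the design; this was not so in the CK-p25 series. With a replicate block the calls were 20 members and 6 sums at 11 months, 11 and 5 in the difference between ages, 4 and 3 at 2 weeks, 6 and 4 at 6 weeks, and 0 at 6 months. The block called Grin2b-d17 at 2 weeks (edgeR adjusted p = 0.0246). Depth limits the narrow members most, since 13 members with 6.61 to 9.74 reads on average were not tested in the CK-p25 series.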

Other observations

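For each leading domain, the domain outside all 6 windows with the most similar profile was looked for among 38123 domains, by the lower of the Pearson correlations of log2 CPM over the 11 tau-series and the 12 CK-p25-series libraries. The libraries share the group differences described above, and the values are a description. Grin2a-d13 was most like chr14:70856643-70862431 (r = 0.99 and 0.97), Gria1-d1 most like chr1:166382708-166392397 (0.98 and 0.96), and Gria2-d6 most like chr10:68996147-69000008 (0.98 and 0.96). Grin1-d6 was most like chr5:112654574-112658362 (0.97 and 0.98), Grin2b-d17 most like chr6:21163674-21166080 (0.98 and 0.98), and Grm2-d2 most like chr7:129813943-129817439 (0.97 and 0.95). Gene names were not assigned to these mm9 domains.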
